A study of Mus musculus with 2 samples.

Results

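Cluster 11 of the authors' deposited annotation is a set of myeloid cells of the mouse dura that is marked by the C-type lectin genes Cd209a, Cd209d, Clec4b1 and Mgl2 and by the MHC class II gene H2-Eb1. Its members were all cells with that cluster number in the deposited cell table, and they are 436 of 12544 annotated cells. Of these, 196 came from the heterozygous library and 240 from the knockout library. The dural meninges are the outer membrane around the brain, and they were taken at postnatal day 14 from mice with an H2B-mCherry allele of Il33, the gene of the cytokine interleukin-33. The heterozygous mice (Il33mcherry/+, called het here) kept 1 intact copy, the knockout mice (Il33mcherry/mcherry, called KO) kept none, and both groups carry the reporter. Each genotype was sequenced as 1 droplet library (10x Genomics), from meninges of 5 to 8 animals pooled for each genotype and sex. The perfused tissue was digested with Liberase TM and DNase I at 37 °C for 30 min. Sorted CD45+CD11b- cells and gp38+CD31- stromal cells were then mixed with all viable cells in parts of 1, 1 and 2, so that CD11b+ myeloid cells entered through the unselected fraction. Any CD45+CD11b- cells of the cluster could have entered through the sorted fraction as well.

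MHC class II molecules present peptides from engulfed material to CD4 T cells, and high levels of them mark dendritic cells and some monocyte-derived and border macrophages. CD209 proteins and the related lectins MGL2 and CLEC4B1 bind sugars on microbes and on host glycoproteins. Interleukin-33 is stored in the nuclei of barrier and stromal cells, and once released it acts through the receptor ST2 (Il1rl1) and the adaptor MyD88 on the transcription factor NF-kB. NF-kB is also switched on by toll-like receptors, tumor necrosis factor and interleukin-1, and it induces chemokines, cytokines and its own inhibitors.

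The counts are unique molecular identifiers (UMIs), each of which stands for 1 captured RNA molecule. The level of a gene is its UMIs per 1000000 UMIs of the cluster in that library (CPM), and all ratios are KO over het. With 1 library for each genotype there is no replicate and no test, and genotype, animals, sort and preparation cannot be told apart. The 95% intervals in brackets are exact (conditional binomial for a ratio, Clopper-Pearson for a share) and cover counting error only. All annotated cells held 87900953 UMIs in het and 94157275 in KO, and cluster 11 held 5126694 and 5622581. The median cell of cluster 11 had 23815.5 UMIs and 4563.5 genes in het, and 19572 UMIs and 4092.5 genes in KO. The matrices of the 2 libraries share 36 barcodes, and no barcode of cluster 11 is in both. Il33 itself had 43.5 CPM in all het cells and 9.68 in all KO cells, from 3827 and 911 UMIs. In stromal cluster 0 the levels were 110 and 24.5 CPM. Cluster 11 held 33 Il33 UMIs in het and 3 in KO.

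Summed over its cells, cluster 11 had higher levels of the label genes than all other cells, in both libraries. These genes were not spread evenly over its cells, as given below. Cd209a was at 305 CPM in the het and 384 in the KO cells of cluster 11, against 3.55 and 3.56 in all other cells. Cd209d stood at 129 and 180, against 0.532 and 1.65. Clec4b1 stood at 107 and 162, against 1.97 and 2.73. H2-Eb1, a chain of the class II molecule, was at 3931 and 5038, against 315 and 292. Mgl2 was at 394 and 473, against 24.8 and 26.1. The other genes that led the cluster over all other cells were Tnip3 (22.0-fold, mean of the libraries with 5 CPM added), the chemokine gene Ccl17 (21.1-fold), Ear2, Wfdc17, Retnla, H2-Aa, H2-Ab1, Tnfsf9, the monocyte chemokine receptor gene Ccr2 (11.7-fold) and the cytokine gene Il1b. These genes describe the cluster and are no test, because the cells were clustered on them.

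A UMI of Cd209a was found in 57.7% of het and 57.9% of KO cells of cluster 11, and in 0.310% and 0.603% of the cells of cluster 1, B cell-like cells that should lack the gene. After each cell was thinned to 2000 UMIs, 32.1% and 38.8% of cluster 11 still had one, against 0.158% and 0.363% of cluster 1, whose median depth was 3934.5 and 4178 UMIs. Detection falls with depth, so a cell without a Cd209a UMI is not shown to lack the gene.

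Cluster 11 shared genes with 3 other deposited clusters. Macrophage genes such as C1qa, a subunit of complement C1q, were high in it (1671 and 1687 CPM), and the 10 macrophage markers summed to 15364 and 14186 CPM. In cluster 3, the cluster with the highest macrophage levels of those compared, they summed to 32057 and 34785. Against cluster 3, the class II genes stood apart most, with H2-Eb1 53.2-fold higher, H2-Aa 52.4-fold and H2-Ab1 52.3-fold, followed by Cd209a at 43.5-fold. Against cluster 14, which is rich in Xcr1, Clec9a and Ccl5, cluster 11 had less H2-Eb1 (6037 and 6526 CPM in cluster 14) but 57.2-fold more C1qa and 39.9-fold more Mgl2. Against cluster 18, which is rich in S100a8, S100a9 and Prtn3, Mgl2 was 41.7-fold and Ccl17 34.5-fold higher. The 10 monocyte markers summed to 2802 and 2983 CPM in cluster 11, and to 7607 and 8617 in cluster 18.

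**Figure D1:**
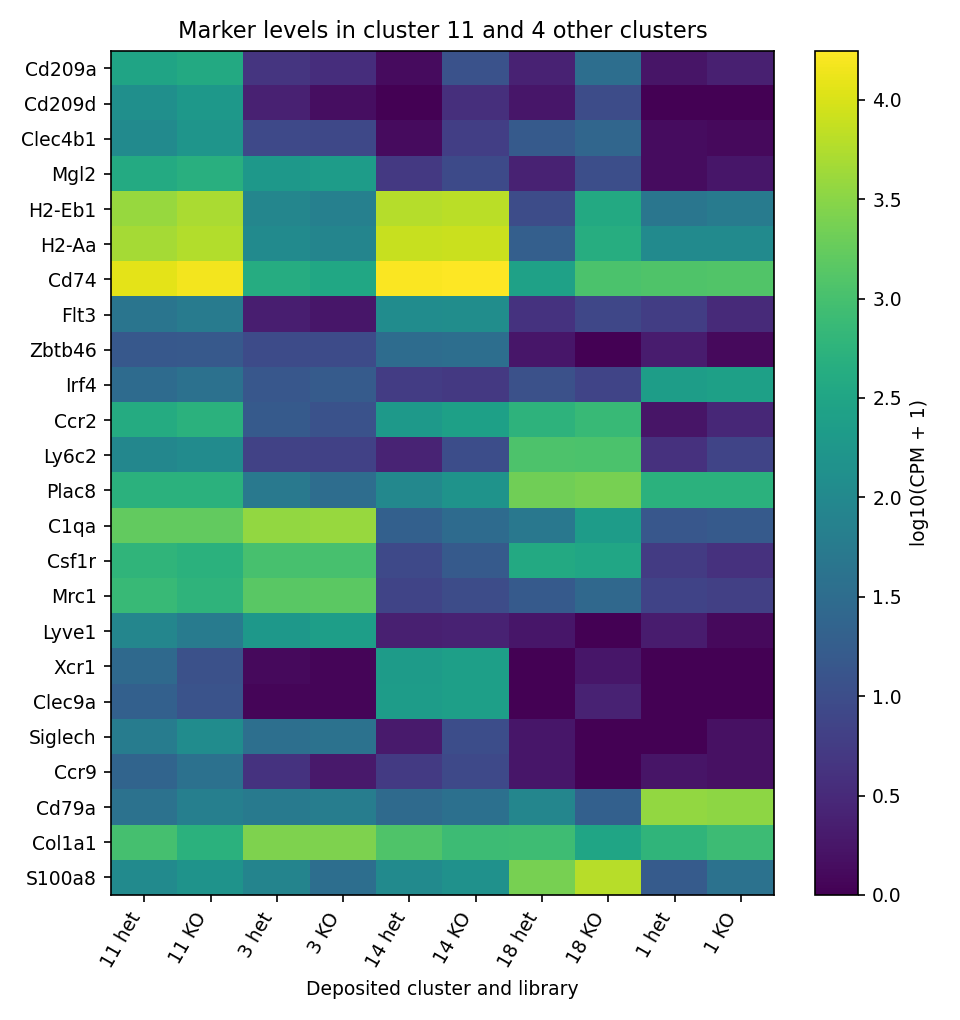
Levels of marker genes (rows) in cluster 11 and in clusters 3, 14, 18 and 1 (columns, 1 for each library), as log10 of CPM plus 1. Cluster 11 carries Cd209a, Cd209d, Clec4b1 and Mgl2 in both libraries, class II genes at levels nearer to cluster 14 than to cluster 3, and C1qa and Csf1r at levels between those of clusters 3 and 14.

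Cells of cluster 11 were 3.29% (2.86 to 3.78) of annotated het cells and 3.64% (3.20 to 4.12) of annotated KO cells. The ratio of the shares was 1.10 (0.911 to 1.34). Among the 5 myeloid clusters (3, 11, 13, 14 and 18) the shares were 18.7% and 22.2%, which gives 1.19 (0.979 to 1.44). Over all annotated cells, the ratio of shares was 0.968 (0.751 to 1.25) among cells the authors labelled female and 1.43 (1.05 to 1.97) among those labelled male. The sort fixed the mix of cells, so these shares are not levels of the tissue.

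The comparison shows which levels in these cells differ between the het and the KO library. In cluster 11, genes induced by NF-kB, chemokine genes and cytokine genes were among those lower in KO. No class II gene was called in either direction, which is near the shares called over all genes given below. A gene was measured if it had at least 20 UMIs over both libraries, and it was called lower or higher where the ratio was at least 1.5-fold from 1 and its interval left out 1. Of 11626 measured genes, 703 (6.05%) were lower in KO and 214 (1.84%) were higher. Lower genes made up 76.7% of those called. With scaling by the median of ratios instead of the total, 555 were lower and 288 higher, which makes lower genes 65.8% of those called. Without the cells of sub-cluster 3, described below, 473 were lower and 240 higher. The median log2 ratio over all measured genes was -0.07, and 7012 genes (60.3%) had a ratio below 1. Fewer genes are called where fewer UMIs are held: with every cell thinned to 2000 UMIs, 239 were lower and 92 higher.

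**Figure D2:**
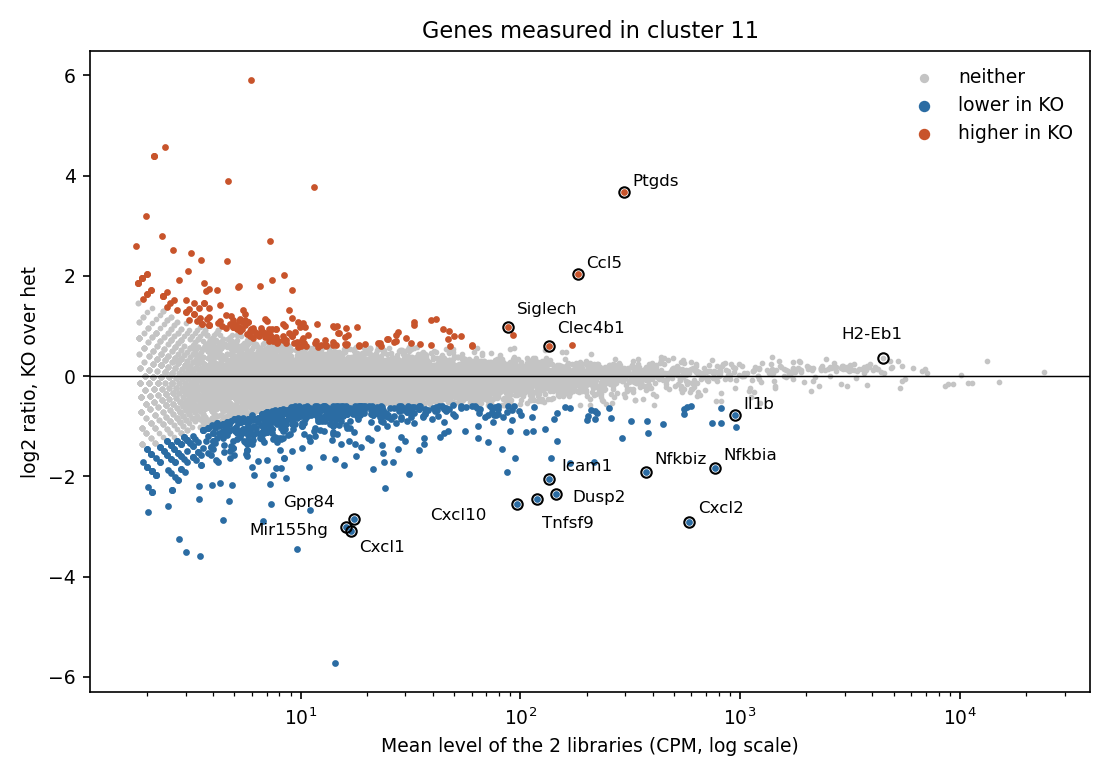
Each point is 1 of 11626 measured genes of cluster 11, with its mean level in CPM (log scale) on the x axis and its log2 ratio, KO over het, on the y axis. Blue points are called lower in KO and orange points higher. Cxcl2, Nfkbia, Nfkbiz, Dusp2, Tnfsf9 and Icam1 lie apart from the other genes of their level.

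The genes that turn NF-kB off again were among the most abundant of the lower ones. Nfkbia encodes IkB-alpha, which holds NF-kB in the cytoplasm and is itself induced by it. Het cells held 1204 CPM and KO cells 338, which gives 0.281 (0.267 to 0.296) for KO over het. In cells labelled female it stood at 1128 and 373, and in cells labelled male at 1401 and 296. Both het pools lay above both KO pools. Nfkbiz, whose product is a nuclear inhibitor-like protein needed for a further set of NF-kB targets, was at 591 and 157, a ratio of 0.266 (0.247 to 0.287). It had 545 and 174 in female and 709 and 137 in male cells, again without overlap. Tnfaip3 encodes the deubiquitinase A20, a brake on the pathway, and it was at 208 and 66.9, a ratio of 0.322 (0.286 to 0.363). Nfkbid had 208 and 84.5 CPM (0.406). Nfkbib and Nfkbie, further inhibitor genes, had ratios of 0.801 (0.662 to 0.968) and 0.927 (0.772 to 1.12) and were not called.

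The genes of the NF-kB subunits differed little. Nfkb1 had a ratio of 0.817 (0.736 to 0.907), Rel 0.805 (0.739 to 0.877), Rela 0.883 (0.745 to 1.05), Relb 0.905 (0.760 to 1.08) and Nfkb2 0.922 (0.747 to 1.14). None of the 5 was called.

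Among further induced genes of this list, Icam1, an adhesion molecule for leukocytes, was at 218 CPM in het and 52.5 in KO (0.241, 0.211 to 0.274). It had 188 and 63.8 in female and 294 and 38.6 in male cells. Gpr84, a receptor for fatty acids, was at 30.8 and 4.27 (0.139). Mir155hg, the host transcript of microRNA 155, was at 28.5 and 3.56 (0.125), and Marcksl1 at 585 and 303 (0.517). Of the 24 genes of the NF-kB list, all measured, 12 were called lower and 0 higher, beside 6.05% and 1.84% of all measured genes, and 24 of 24 ratios lay below 1. The median log2 ratio of the list was -0.49, against -0.07 for all measured genes. In 20 of the 24, both het pools lay above both KO pools, which held for 24.5% of all measured genes. This list shares Nfkbia, Nfkbiz, Icam1, Gpr84 and Mir155hg with the genes ranked first by their difference, so its count is a description. The same holds for chemokine ligands (Cxcl1, Cxcl2, Cxcl10 and Ccl17), cytokines (Tnf), immediate early genes (Dusp2) and interferon genes (Rsad2) below. It also holds for co-stimulatory genes (Tnfsf9), genes induced by interleukin-4 and interleukin-13 (Ccl17), lectins (Cd209b), plasmacytoid dendritic cell markers (Siglech) and B cell markers (Cd79a).

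Of the 24 gene lists, the chemokine ligands had the lowest median. Cxcl2, which draws neutrophils, had 1037 CPM in het against 139 in KO, from 5314 and 780 UMIs (0.134, 0.124 to 0.144). It stood at 862 and 154 in female cells and at 1484 and 120 in male cells, so the het pools lay far above the KO pools. Its neighbor Cxcl1, another neutrophil chemokine, had 30.4 and 3.56 (0.117, 0.0695 to 0.187). Cxcl10, induced by interferon and NF-kB and drawing T cells, had 165 and 28.3 (0.171, 0.144 to 0.203), and 30.7% of its het UMIs lay in 1 cell. Without the top cell of each library its ratio was 0.213.

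Bases upstream of 5 of these genes are shown so that the place of NF-kB-like letters can be seen. Each line gives 250 bases before the start of the RefSeq gene (mouse build GRCm38.p6, which is mm10), 5′ to 3′ on the gene's strand. Capitals mark matches on either strand to an NF-kB-like motif (GGG, 3 bases of any kind, then TTCC) and to TGANTCA, an AP-1-like motif. Cxcl2 lies at chr5:90903649-90903898 on the plus strand, Cxcl1 at chr5:90890995-90891244 on the plus strand, Cxcl10 at chr5:92348890-92349139 on the minus strand, Nfkbia at chr12:55492648-55492897 on the minus strand and Tnf at chr17:35202008-35202257 on the minus strand.
Cxcl2: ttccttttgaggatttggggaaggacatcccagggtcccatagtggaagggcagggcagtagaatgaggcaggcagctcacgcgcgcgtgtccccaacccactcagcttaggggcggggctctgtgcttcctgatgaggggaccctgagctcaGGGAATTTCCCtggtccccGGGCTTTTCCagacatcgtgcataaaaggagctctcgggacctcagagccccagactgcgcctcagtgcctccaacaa
Cxcl1: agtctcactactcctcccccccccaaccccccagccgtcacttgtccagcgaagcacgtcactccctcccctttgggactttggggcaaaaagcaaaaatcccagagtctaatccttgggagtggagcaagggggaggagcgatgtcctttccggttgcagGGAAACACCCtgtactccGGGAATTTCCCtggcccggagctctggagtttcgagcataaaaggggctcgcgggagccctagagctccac
Cxcl10: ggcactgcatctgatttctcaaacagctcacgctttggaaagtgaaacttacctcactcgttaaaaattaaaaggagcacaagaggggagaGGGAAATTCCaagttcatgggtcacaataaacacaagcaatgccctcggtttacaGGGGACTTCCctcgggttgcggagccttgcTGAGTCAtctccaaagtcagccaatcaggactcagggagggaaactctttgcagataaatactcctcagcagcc
Nfkbia: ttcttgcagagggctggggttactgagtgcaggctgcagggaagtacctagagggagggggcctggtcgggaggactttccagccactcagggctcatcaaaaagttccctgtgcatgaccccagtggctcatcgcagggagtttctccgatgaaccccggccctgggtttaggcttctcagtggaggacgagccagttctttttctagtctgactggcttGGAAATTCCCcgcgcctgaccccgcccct
Tnf: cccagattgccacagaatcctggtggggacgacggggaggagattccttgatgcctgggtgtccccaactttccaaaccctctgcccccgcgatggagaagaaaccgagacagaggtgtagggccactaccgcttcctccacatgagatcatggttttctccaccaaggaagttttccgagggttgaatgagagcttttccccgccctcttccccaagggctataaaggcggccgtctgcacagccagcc
In Cxcl2 the match GGGAATTTCC lies 88 to 97 bases before the start, and it overlaps a match on the other strand that is shifted by 1 base. A further match, GGGCTTTTCC, lies 69 to 78 bases before it. Cxcl1 has the same letters GGGAATTTCC, with the same overlap, at 62 to 71 bases and another match at 80 to 89. Cxcl10 has GGGAAATTCC at 150 to 159, GGGGACTTCC at 95 to 104 and the AP-1-like TGAGTCA at 68 to 74 bases. Nfkbia has 1 match, at 20 to 29 bases, and Tnf has none in this window. Of the 15 genes ranked first as lower, 13 were matched in the RefSeq table, and 5 of those (38.5%) held the NF-kB-like letters (Cxcl1, Cxcl10, Cxcl2, Nfkbia and Sdc4). They were found in 1244 of 27025 promoters (4.60%) and in 5.08% of the 8890 matched genes measured in cluster 11. AP-1-like letters were found in 2 of the 13 (Cxcl10 and Rsad2), in 6.87% of all promoters and in 4.14% of the matched genes measured in cluster 11. Of the 15 genes ranked first as higher, 12 were matched, 1 of them (Cd79a) with the NF-kB-like letters and 2 (Adora3 and Ptgds) with the AP-1-like letters. A match is a description of letters in a window, not a binding site.

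Other chemokine genes differed less or not at all. The monocyte chemokine gene Ccl2 was at 694 and 455 CPM (0.656, 0.623 to 0.690), with 725 and 482 in female and 615 and 422 in male cells. Ccl3 was at 257 and 149 (0.580), Ccl12 at 331 and 186 (0.561) and Ccl7 at 307 and 199 (0.647). Cxcl9 had a ratio of 0.276, Ccl22 0.390 and Ccl24 0.569. Of Ccl22, 70.6% of the het UMIs lay in 1 cell, and its ratio was 0.796 without the top cells. Ccl4, a gene close to Ccl3, was at 467 and 523 (1.12, 1.06 to 1.18), and Ccl6, Ccl9 and Cxcl16 had ratios of 1.14, 1.06 and 1.13. Of the 17 measured chemokine genes, 11 were called lower and 1 higher (6.05% and 1.84% of all genes), with a median log2 ratio of -0.79. In male cells that median was -0.13, and Ccl7, Ccl24 and Cxcl9 lay above 1 there, at 1.32, 1.92 and 1.86. Both het pools lay above both KO pools in 7 of the 17, beside 24.5% of all measured genes. The 1 higher gene was Ccl5, with 71.8 and 293 CPM, but 83.7% of its KO UMIs lay in 1 cell and the ratio was 1.01 without the top cell of each library.

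Ccl17, a chemokine gene of dendritic cells, was at 258 CPM in het and 77.5 in KO, and the sexes ran in opposite directions. Female cells had 355 and 34.0, male cells 9.73 and 130. Its level rests on few cells: 12.8% of het cells and 10.0% of KO cells had a Ccl17 UMI.

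Tumor necrosis factor and interleukin-1 genes were lower in KO. Tnf stood at 137 CPM in het against 36.3 in KO (0.265, 0.225 to 0.310). The pools were close within a genotype, with 139 and 133 in het and 36.9 and 35.5 in KO. Il1b was the most abundant cytokine gene of the list, at 1200.0 and 697 CPM (0.581, 0.558 to 0.604), with 1090 and 676 in female and 1482 and 722 in male cells. Il1a was at 24.4 and 7.11 (0.292), Il6 at 21.8 and 6.94 (0.318) and Il10, the gene of an anti-inflammatory cytokine, at 19.1 and 3.02 (0.158). Tgfb1 had a ratio of 0.946 and Il18 1.01. Of 17 measured cytokine genes, 6 were called lower and 0 higher (6.05% and 1.84% of all genes), with a median log2 ratio of -0.28. Nlrp3, the sensor of the inflammasome that matures interleukin-1 beta, was at 101 and 40.7 CPM (0.402, 0.343 to 0.471).

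Genes of cell contact and of feedback were in the same group of first-ranked genes. Tnfsf9 encodes the co-stimulatory ligand 4-1BBL, and it was at 202 CPM in het and 37.2 in KO (0.184, 0.158 to 0.214). Female cells had 171 and 36.9 and male cells 281 and 37.5, so the pools did not overlap. Dusp2, a phosphatase of MAP kinases, was at 243 and 47.7 (0.196), with 210 and 61.6 in female and 327 and 30.8 in male cells. Sdc4, a cell surface proteoglycan, was at 332 and 102 (0.306), and Areg, an epidermal growth factor ligand, at 40.0 and 8.54 (0.213). Cd40, the receptor through which T cells activate dendritic cells, was at 23.6 and 9.60 (0.407). The co-stimulatory genes Cd80 and Cd86 had ratios of 1.03 (0.682 to 1.55) and 1.08 (0.983 to 1.18). Of 13 measured co-stimulatory and co-inhibitory genes, 3 were called lower and 0 higher, against 6.05% and 1.84% of all genes. Plet1, chosen after its values were seen because it had the lowest ratio in the cluster, had 145 UMIs in het against 3 in KO (0.0189, 0.00385 to 0.0562).

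**Figure D3:**
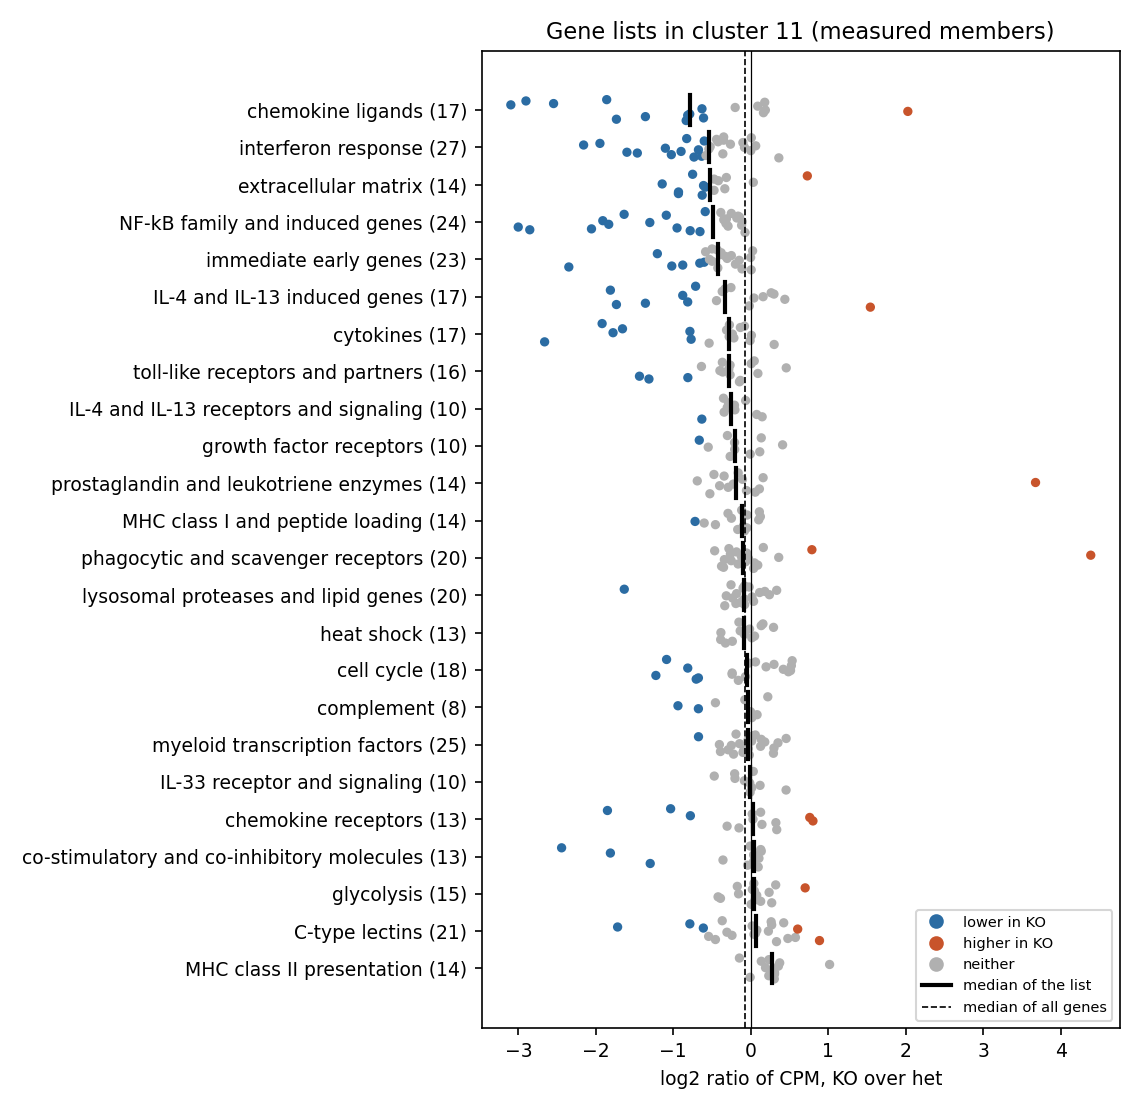
Log2 ratio, KO over het, of each measured member (point) of 24 gene lists in cluster 11, with the number of measured members in brackets. Thick bars are list medians and the dashed line is the median of all measured genes (-0.07). Chemokine, interferon response, extracellular matrix and NF-kB lists have the lowest medians, and MHC class II presentation has the highest.

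Immediate early genes, which respond within minutes to many stimuli, tissue digestion included, were lower as well. Egr1 was at 1276 CPM in het and 630 in KO (0.494, 0.474 to 0.514), with 1273 and 680 in female and 1281 and 569 in male cells. Egr2 had a ratio of 0.544, Maff 0.434, Fosb 0.634 and Ier2 0.659. Jun had 0.691 and Fos 0.873, and Atf3 was level at 1.00 (0.963 to 1.05). Of 23 measured genes, 6 were called lower and 0 higher (6.05% and 1.84% of all genes), with a median log2 ratio of -0.42. Both het pools lay above both KO pools in 16 of the 23, beside 24.5% of all measured genes. The 13 heat shock genes had a median of -0.08 and no call, against 6.05% and 1.84% of all genes. Both genotypes were digested alike per the labels. What part the handling of the tissue has in the NF-kB result was not tested.

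Among interferon-induced genes, 12 of 27 measured genes were called lower in KO and 0 higher, against 6.05% and 1.84% of all genes, with a median log2 ratio of -0.54. Isg15, a ubiquitin-like protein gene, was at 122 and 57.1 CPM (0.466, 0.406 to 0.534), with 143 and 76.1 in female and 70.9 and 33.9 in male cells. Ifit1 had a ratio of 0.363, Ifit2 0.330, Rsad2 0.259 and the transcription factor gene Irf1 0.627. Irf7 had 0.688 and was not called, because its interval (0.575 to 0.822) leaves out 1 but its fold is below 1.5. Bst2, which plasmacytoid dendritic cells carry, was at 392 and 504 (1.29). Of the Rsad2 UMIs in KO, 56.9% lay in 1 cell. In the 27 genes, both het pools lay above both KO pools in 8, close to the share over all genes. 

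Of the 14 measured MHC class II genes, 0 were called lower and 0 higher in KO, against 6.05% and 1.84% of all genes. For 14 genes, a count of 0 is near those shares. H2-Eb1 stood at 3931 CPM in het against 5038 in KO (1.28, 1.26 to 1.30). Female cells had 3747 and 5160 and male cells 4403 and 4888, so both KO pools lay above both het pools. H2-Aa had 4691 and 5807 (1.24), H2-Ab1 4300.2 and 5324 (1.24), and Cd74, the invariant chain that guards the class II groove, 11935 and 14743 (1.24). The peptide loading genes H2-DMa and H2-DMb1 had ratios of 1.20 and 1.22, the protease gene Ctss 1.18 and the protease gene Lgmn 0.904. Ciita, the master regulator of class II, was level at 32.0 and 31.8 CPM (0.995, 0.801 to 1.24). Of the 14 genes, 12 had a ratio above 1, with a median log2 ratio of +0.27. In 9 of the 14, both KO pools lay above both het pools, which held for 14.7% of all measured genes. Split by sex label, the median of the list was 0.34 among female cells and 0.09 among male ones. It was -0.038 without the 165 het and 223 KO cells that carry 3 or more markers of another class, which is most of the cluster.

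The lectin genes of the label did not follow 1 direction across the pools. Cd209a had 305 and 384 CPM (1.26, 1.18 to 1.35), from 264 and 422 in female cells but 411 and 338 in male cells. Cd209d had 129 and 180 (1.39), from 88.7 and 177 in female and 234 and 185 in male cells. Mgl2 had 1.20, with 379 and 538 in female and 432 and 394 in male cells, and Clec4b1 had 1.52 (1.37 to 1.70), with 93.3 and 172 in female and 140 and 150 in male cells. Clec4e, which encodes the glycolipid receptor Mincle, was at 40.4 and 12.3 (0.304, 0.228 to 0.401). Mrc1, the mannose receptor gene, had 739 and 573 (0.775) and Clec10a 342 and 353 (1.03). Of 21 measured C-type lectin genes, 3 were called lower and 2 higher (6.05% and 1.84% of all genes), with a median log2 ratio of +0.06. Because the 5 label genes helped to define the cluster, their ratios also depend on which cells of each library were assigned to it.

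**Figure D4:**
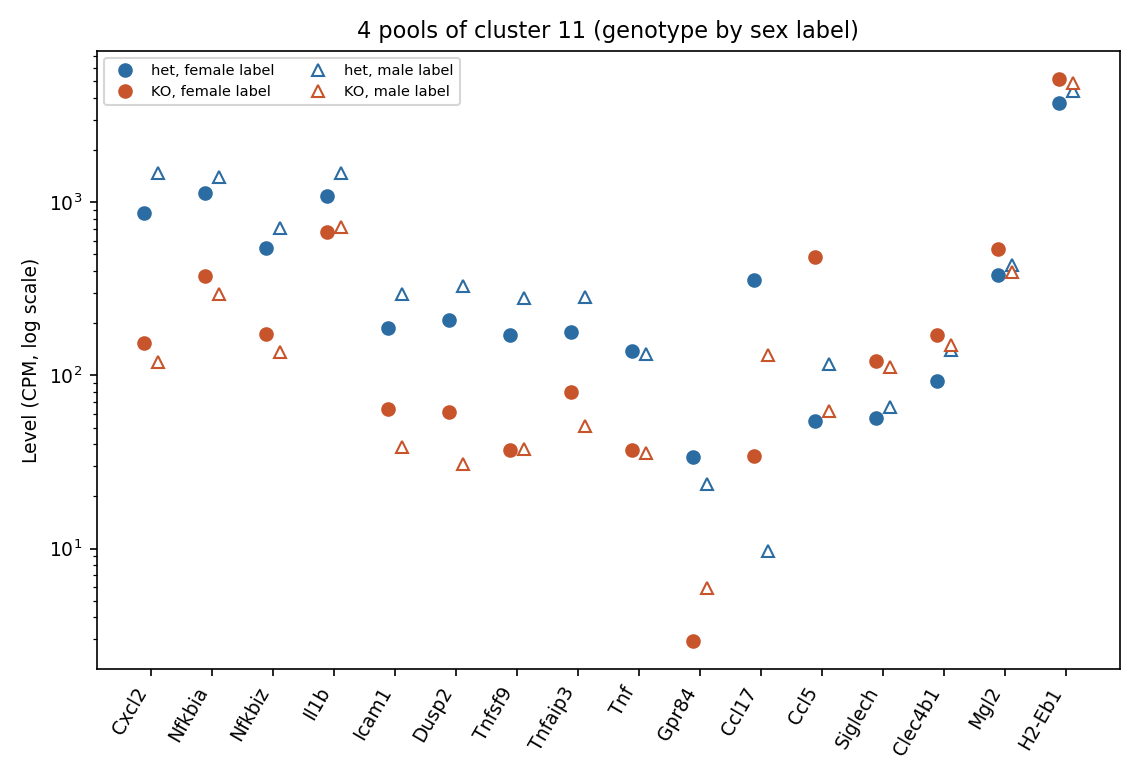
Level in CPM (log scale) of 16 genes in the 4 pools of cluster 11. Blue marks het and orange KO; circles are cells labelled female and triangles cells labelled male. For Cxcl2, Nfkbia, Nfkbiz, Il1b, Icam1, Dusp2, Tnfsf9, Tnfaip3, Tnf and Gpr84 both het pools lie above both KO pools, while Ccl17, Ccl5 and Mgl2 cross.

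The sex label gives 131 female and 65 male het cells and 124 and 116 KO cells, and it is used here to stand for the sex of the pooled animals. It follows the detection of Xist, which all cells of the female label and none of the male label had. A Y-linked UMI was also found in 26 het and 23 KO cells of the female label. In the male label, 4 het and 11 KO cells had neither, so the pools are not clean sets of animals. The median depth was 26612 UMIs in female and 19346 in male het cells, and 21344 and 18969.5 in KO. Of the 15 genes ranked first as lower, both het pools lay above both KO pools in 13, beside 24.5% of all measured genes. Of the 15 ranked first as higher, both KO pools lay above both het pools in 12, beside 14.7% of all measured genes. These ranks used the same cells, so the counts are a description. Both pools of a genotype come from the same library and sort, so they are not replicates.

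The interleukin-33 receptor was at a low level. Il1rl1 had 18.5 CPM in het and 25.4 in KO (1.37, 1.05 to 1.80), from 95 and 143 UMIs. Female cells had 17.4 and 32.4 and male cells 21.6 and 17.0, so the pools overlap. Myd88, the adaptor of the receptor, had 60.9 and 43.9 (0.722, 0.608 to 0.856). Of the 10 genes of the receptor and its signaling, 0 were called (6.05% lower and 1.84% higher of all genes), with a median log2 ratio of -0.01. Genes induced by the type 2 cytokines interleukin-4 and interleukin-13 had 6 of 17 called lower and 1 higher (6.05% and 1.84% of all genes), with a median of -0.33. Ccl17, Ccl22, Ccl24 and Egr2 among the lower ones also stand in other lists above. Both het pools lay above both KO pools in 4 of the 17, close to the 24.5% of all measured genes. Retnla, the gene of a secreted protein of type 2 responses, had 127 and 101 CPM (0.794), but this hides opposite values by cell. Its UMIs numbered 0 in het and 445 in KO in sub-cluster 1, and 198 and 0 in sub-cluster 4. In female cells its ratio was 0.0317.

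Genes higher in KO were fewer and in part came from few cells. Siglech, a surface receptor of plasmacytoid dendritic cells, was at 59.1 CPM in het and 117 in KO (1.98, 1.73 to 2.28), with 56.4 and 121 in female and 66.1 and 112 in male cells. Of the 10 plasmacytoid dendritic cell markers, 5 were called higher and 0 lower (1.84% and 6.05% of all genes), with a median log2 ratio of +0.56, and the list summed to 956 CPM in het and 1248 in KO. Without sub-cluster 7, which holds these cells, the ratio of Siglech was 1.14. Chchd10, a mitochondrial protein gene, was at 25.7 and 56.6 (2.20), and Upb1, an enzyme of pyrimidine breakdown, at 24.6 and 53.7 (2.19). Cd72, a receptor of B cells and macrophages, had 21.1 and 44.3 (2.10) and Slamf9 66.7 and 118 (1.77).

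Ptgds, the prostaglandin D synthase gene of the arachnoid and other meningeal cells, had the highest ratio of the ranked genes, 42.9 and 549 CPM (12.8, 11.2 to 14.7). A single KO cell held 59.1% of its KO UMIs, and the ratio was 5.94 without the top cells and 2.99 without sub-cluster 3. In cluster 1 the gene was at 31.6 and 51.8 CPM and in cluster 0 at 36.1 and 58.8. Ifitm1 had 61.4% of its KO UMIs in 1 cell, and its ratio of 1.86 became 1.02 when the top cells were left out. For Col8a1, with 45.5% in 1 cell, 2.02 became 1.27. Cd79a, a B cell receptor gene, had 39.2 and 68.3 (1.74), with 40.4 and 108 in female but 36.2 and 20.5 in male cells. Of 9 B cell markers, 3 were called higher, against 1.84% of all genes. They summed to 300 and 411 CPM, against 17910 and 17291 in cluster 1. What part RNA of other cells has in these higher genes was not tested.

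Fibroblast genes were lower in KO as well. Of 8 fibroblast markers, 7 were measured and 5 called lower (6.05% of all genes), with Col1a1 at 981 CPM in het and 514 in KO (0.524) and Dcn at 523 and 237 (0.453). The list summed to 3025 and 1632 CPM, against 44598 and 42881 in stromal cluster 0 and 1373 and 1967 in cluster 1. Dpt, the remaining marker, had 1 and 2 UMIs. These genes were concentrated in sub-cluster 3, and without it the ratio of Dcn was 1.44. Without it the ratio of Nfkbia was 0.262, of Nfkbiz 0.255, of Cxcl2 0.133 and of Tnf 0.268. With those cells the NF-kB gene ratios were 0.281, 0.266, 0.134 and 0.265 in the same order.

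The levels were also lower in the median cell. The median het cell had 1058.5 CPM of Nfkbia and the median KO cell 230.7, and the quartiles were 457.8 and 1778.8 in het and 86.4 and 399.7 in KO. For Nfkbiz the medians were 510.8 and 101.2, and for Il1b 666.0 and 321.9. Cxcl2 had a median of 133.1 in het and 0 in KO, since 75.4% of KO cells had none. H2-Eb1 had medians of 3713.6 and 4458.2, with quartiles that overlap widely. UMIs of all 5 of Cxcl2, Nfkbia, Nfkbiz, Icam1 and Tnf were found in 88 of 196 het cells (44.9%) and 20 of 240 KO cells (8.33%). All 5 are among the genes ranked first as lower in these same cells, so this count is a description. Cells were not thinned to equal depth for it.

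Shares of cells with a UMI depend on depth, which was higher in het, and on free RNA. Cxcl2 was detected in 61.7% of het and 24.6% of KO cells of cluster 11, and in 40.3% and 9.17% with every cell thinned to 2000 UMIs. In cluster 1 it was detected in 3.56% and 0.362%, and in 2.06% and 0.121% after thinning. Tnf was detected in 69.4% and 35.0% of cells, in 19.9% and 5.42% after thinning, and in 0.464% and 0.121% of cluster 1. No cell of cluster 11 had fewer than 2000 UMIs.

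To see which cells carry these differences, the 436 cells were clustered again, which gave 9 sub-clusters numbered from 0. Their sizes in the libraries are given but not compared, since genes that differ by genotype took part in the clustering. A gene that leads a sub-cluster need not be held by the cells of both libraries. In sub-cluster 4, Gpnmb had 58 UMIs in het and 3 in KO. As given above, Retnla had none in het in sub-cluster 1, and Plet1 had few in KO in the whole cluster. Sub-cluster 0 (48 het and 43 KO cells) was led by Ccl17, Plet1, Areg, Aqp3 and Tnfsf9. Sub-cluster 1 (10 and 38) was led by Retnla, Sirpb1c and Lyz2, and sub-cluster 2 (28 and 43) by Ms4a1, Rsad2, Ifit1 and Cxcl9. Sub-cluster 3 (23 and 15) was led by the fibroblast genes Dcn and Plpp3, and 92.1% of its cells are among those with the highest doublet scores. Sub-cluster 4 (21 and 26) was led by Spp1, Gpnmb and Marco, and sub-cluster 5 (15 and 12) by histone and cell division genes such as Hist1h1b and Top2a. Sub-cluster 6 (15 and 12) was led by Ccl5, Ccr7, Il12b and Xcr1, and sub-cluster 8 (22 and 16) by Fabp7, Npy and Mcpt8. Sub-cluster 7 (14 and 35) was plasmacytoid dendritic cell-like, with 10 of 10 markers of that type at least 2-fold above the other sub-clusters and Cox6a2, Ccr9 and Siglech among its leading genes.

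The label genes were spread unevenly over these cells. Cd209a was highest in sub-cluster 0, at 684 CPM in het and 1061 in KO, and it was at 469 and 504 in sub-cluster 2. Cd209d was highest in the plasmacytoid dendritic cell-like sub-cluster 7, at 725 and 724. In sub-clusters 4 and 8 Cd209d had at most 1 UMI in each library. H2-Eb1 was at 7836 and 9543 in sub-cluster 0 and at 489 and 1576 in sub-cluster 7.

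Nfkbia and Nfkbiz were lower in KO in all 9 sub-clusters, each with an interval below 1. The Nfkbia ratio ran from 0.253 in sub-cluster 0 (1750 and 443 CPM) to 0.420 in sub-cluster 3 (853 and 358). In sub-cluster 7 it stood at 458 and 127 CPM. Cxcl2 was lower in each of the 8 sub-clusters with enough UMIs, and most in sub-cluster 0, from 803 UMIs in het to 4 in KO (866 and 4.56 CPM). It was highest in sub-cluster 4, at 2351 and 517. Tnf was lower in each of the 7 sub-clusters in which it was measured, and Il1b was below 1 in 9 of 9, with an interval below 1 in 7. H2-Eb1 was above 1 in 9 of 9, with an interval above 1 in 8. Siglech was at 1360 and 1194 in sub-cluster 7, a ratio of 0.878 (0.748 to 1.03), so the higher level over the cluster was not seen among the cells that carry most of it. Ccl5 was at 514 and 4203 CPM in sub-cluster 6, and Ptgds at 74.5 and 3869 in sub-cluster 3.

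**Figure D5:**
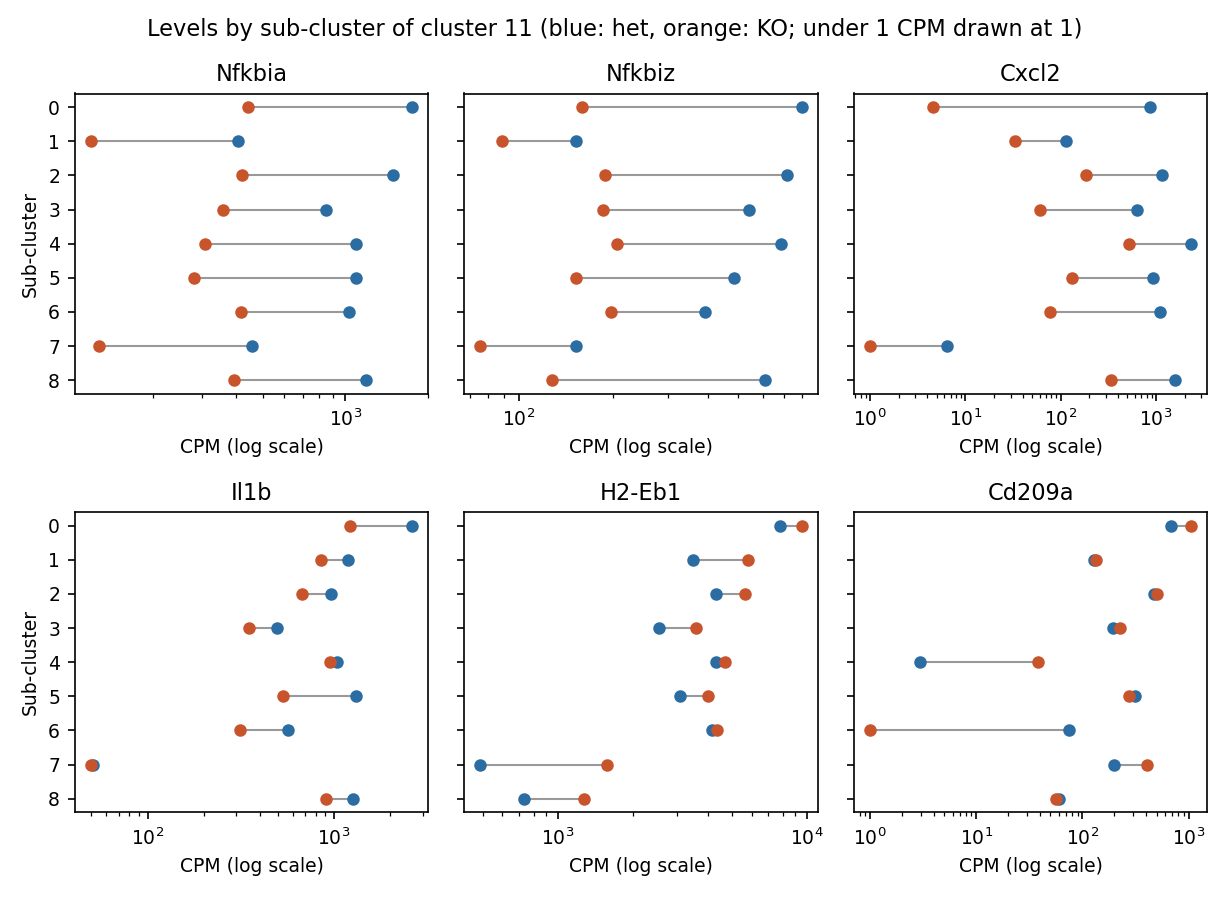
Levels in CPM (log scale) of 6 genes in each of the 9 sub-clusters (rows), with het in blue and KO in orange joined by a line. Levels below 1 CPM are drawn at 1. Nfkbia and Nfkbiz are lower in KO in each row, Il1b and H2-Eb1 differ less, and Cd209a has no common direction.

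The same genes were read in the 3 like clusters, which share both libraries with cluster 11. Cxcl2 was at 1939 and 294 CPM in cluster 3 (0.151), 36.4 and 3.98 in cluster 14 (0.109) and 154 and 38.6 in cluster 18. Nfkbia was at 1131 and 404 in cluster 3 (0.357, 0.342 to 0.372), 214 and 196 in cluster 14 (0.916, 0.813 to 1.03) and 396 and 185 in cluster 18 (0.468, 0.399 to 0.547). In B cell-like cluster 1 it was at 558 and 628 (1.13, 1.05 to 1.20). The Nfkbia interval of cluster 11 (0.267 to 0.296) does not overlap that of any of these clusters, but these intervals cover counting error only. Of the NF-kB list, 11 of 24 measured genes were called lower in cluster 3, where 4.04% of all genes were, and 0 were called higher (1.69% of all genes). In cluster 14 it was 2 of 23 (5.62% of all genes) with 1 higher (3.06% of all genes), and in cluster 18 it was 5 of 22 (6.49% of all genes). Median log2 ratios of the list were -0.53, -0.08 and -0.32, against -0.49 in cluster 11, so cluster 3 was about as low.

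Interferon and class II genes were read there too. Of 27 measured interferon response genes, 0 were called lower and 1 higher in cluster 3, against 4.04% and 1.69% of all genes. In cluster 18, 0 of 27 were called lower and 14 higher, against 6.49% and 2.28% of all genes. In cluster 14, 7 of 25 were called lower and 1 higher, against 5.62% and 3.06% of all genes. Isg15 was at 79.7 and 54.9 CPM in cluster 3 and at 58.6 and 154 in cluster 18. H2-Eb1 was at 87.9 and 70.8 CPM in cluster 3 (0.805), 6037 and 6526 in cluster 14 (1.08) and 8.71 and 380 in cluster 18. Of the measured class II genes, 3 of 12 had a ratio above 1 in cluster 3, 13 of 14 in cluster 14 and 8 of 9 in cluster 18. In cluster 18, 0 were called lower and 5 higher, against 6.49% and 2.28% of all genes. In cluster 3, 1 was called lower and 0 higher, against 4.04% and 1.69%. In cluster 14, 1 was called lower and 0 higher, against 5.62% and 3.06%. With 1 library for each genotype, a difference between clusters in the ratio was not tested beyond counting error.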

How the data were processed

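Dural cells of 1 het and 1 KO library were measured by droplet RNA sequencing. The deposited count table holds raw UMI counts per gene and cell, aligned to mm10 with Cell Ranger 3.0.2 per the submitters' processing notes. The authors' cell table gives cluster number, genotype, sex label and the deposited percent of mitochondrial counts. How cells were filtered is not stated in the sources used. Members and gene lists were chosen with earlier results of these data known.

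Counts were summed over the cells of cluster 11 for each library and divided by their total. Genes with at least 20 UMIs were compared by exact 95% intervals (scipy 1.17.1), and no test was run. The intervals were checked on simulated counts with counting error only, so the check does not cover spread between cells. Named genes were the first 15 in each direction among genes with at least 100 UMIs, a UMI in at least 10% of cells of 1 library and a ratio at least 1.5-fold from 1. They were ranked by the interval bound nearest 1, leaving out mitochondrial, ribosomal, hemoglobin, receptor segment and sex-linked genes. The first 15 leading genes against all other cells, the first 10 in each direction against clusters 3, 14 and 18, and measured list members could also be named. Doublets were kept, and an alternative left out the top 10% of Scrublet scores of each library. Sub-clusters came from Leiden clustering (scanpy 1.11.5, leidenalg 0.10.2, resolution 0.5, 2000 variable genes, 20 principal components, seed 1). Alternatives covered the scaling, UMI minimum, thinning, sex label, single cells of high level, mixed cells and the mix of sub-clusters. The deposited tables of a subset of cells were not used.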

Additional observations from a re-analysis of the deposited data

Results flagged for a closer look

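For 10 of the genes named for cluster 11, the KO over het ratio lay on opposite sides of 1 in cells labelled female and male. Each ratio had a counting interval that leaves out 1. Only a set of named genes was searched, so no share over all measured genes is given. In each case the difference was not tested, because the pools are parts of a single library for each genotype, split by the sex label. Among chemokine genes, Ccl17 had a ratio of 0.0959 in female and 13.4 in male cells, Ccl24 0.377 and 1.92, and Ccl7 0.535 and 1.32. Ccl5 ran the other way, with 8.90 in female and 0.530 in male cells. Among the lectin genes of that set, 4 were above 1 in female and below 1 in male cells in this way. Cd209a had 1.60 and 0.822, Cd209b 3.80 and 0.474, Cd209d 2.00 and 0.790, and Clec10a 1.10 and 0.895. The B cell receptor gene Cd79a had 2.66 and 0.567. Tnip3, a gene of the NF-kB list, had 1.24 and 0.329.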

How the results depend on the processing

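No paired analysis was possible because each genotype has 1 library, and for the same reason no library could be left out. Scaling by the median of ratios, or without mitochondrial, ribosomal and hemoglobin genes, kept the direction of 69 of 69 called named genes. The equal weights gave no gene counts, since they have no counting interval. The equal weights of sub-clusters and the removal of sub-clusters 3 or 7 were chosen after seeing the data. Leiden resolution 1 gave 12 sub-clusters. Where no value below shows the cause of a change, the cause was not tested.

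With cells thinned to 2000 UMIs, 239 genes were lower and 92 higher, the list medians (log2) were -0.41 for chemokine ligands, -0.85 for cytokines and -0.82 for extracellular matrix, and Fpr1 had a ratio of 2.45. With a minimum of 100 UMIs, 372 genes were lower and 76 higher. With each cell given equal weight the NF-kB median was -0.73. In female cells the medians were 0.34 for class II, -0.29 for NF-kB and 0.0047 for extracellular matrix. In male cells they were 0.095 for class II, -0.27 for C-type lectins, -0.13 for chemokine ligands, -0.88 for cytokines, -0.79 for NF-kB, 0.14 for heat shock, 0.27 for complement, 0.21 for glycolysis, -1.53 for extracellular matrix and 0.33 for cell cycle. The share ratio in male cells was 1.43. The gene ratios that reversed in male cells were 13.4 for Ccl17, 0.567 for Cd79a, 0.474 for Cd209b, 1.92 for Ccl24, 0.530 for Ccl5, 1.32 for Ccl7, 0.967 for Ccr9 and 1.86 for Cxcl9.

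With equal weight for sub-clusters, medians were -0.38 for chemokine ligands, -0.32 for immediate early genes, 0.067 for complement, -0.066 for extracellular matrix and 0.32 for cell cycle. Ratios were then 0.923 for Siglech, 0.878 for Mzb1, 0.662 for Ccr9 and 0.607 for Cox6a2. Without sub-cluster 3 the extracellular matrix median was 0.42, Ccl22 had 1.24 and Dcn 1.44. Without sub-cluster 7, Ccr9 had 0.688 and Cox6a2 0.375. Without the highest Scrublet scores, medians were -0.92 for chemokine ligands, -0.14 for complement and -0.31 for extracellular matrix, and Col8a1 had 0.743 and Ccl5 0.472. The chemokine median was -0.60 when the highest cell of each library was left out.

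Leaving out cells with at least 3 markers of another class removed 165 het and 223 KO cells and so most of the cluster. Then 262 genes were lower and 194 higher, so that lower genes were 57.5% of those called. Medians were -0.038 for class II, 0.063 for class I, -0.22 for C-type lectins, -1.06 for chemokine ligands, 0.59 for chemokine receptors, -0.99 for NF-kB, 0.61 for growth factor receptors, 0.17 for myeloid transcription factors, -0.32 for phagocytic receptors, 0.012 for lysosomal genes, -0.26 for glycolysis, 0.67 for extracellular matrix and -0.83 for cell cycle. Ratios that reversed were 1.09 for Gpr84, 1.01 for Areg, 1.64 for Ccl17, 0.728 for Cd79a, 0.936 for Cd209b, 0.624 for Adora3, 3.82 for Ccl24, 0.816 for Clec4b1, 2.15 for Col1a1, 6.55 for Il10 and 1.79 for Tnfaip2.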
